A study of Aspergillus niger with 6 samples.

Results

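The genes described here gave many reads in both culture states of an Aspergillus niger strain and nearly the same mean level in each. There were 82 of them among the 10505 gene IDs of the table. A member had an ID beginning with ANI_1_, a mean of at least 500 CPM in both states and a ratio of the mean fermentation CPM to the mean seed CPM from 0.8 to 1/0.8, that is from 20% lower to 25% higher. CPM is the count of an ID divided by the sum of its library and multiplied by 1000000. The measured levels therefore chose the members, and the closeness of the state means is a description of that choice, not a finding.

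The fermentation libraries came from mycelium sampled at 72 h in fermentation medium, and the seed libraries from mycelium grown from spores for 20 h in seed medium. Each state had 3 biological replicates. All 6 libraries shared strain and genotype, a derivative of ATCC 1015 written RG0095 in the titles and GR0095 in another label field. It lacks oahA, which encodes the enzyme that splits oxaloacetate into oxalate and acetate, and its genotype lists pyc, mdhC and a C4T318 construct behind the gpd promoter. It is 1 strain with no unmodified parent beside it, and medium and culture time change together, so their effects cannot be told apart.

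RNA-seq divides the reads of a library among genes, so a gene can keep its share while the total mRNA of the cell changes. Genes that hold a high share in several conditions are the usual candidates for reference genes, against which other transcripts are measured. Aspergillus niger is a filamentous fungus, and a move from growth medium to acid production medium is known to change central metabolism, transport and secretion. Whether a gene counts as steady depends both on how far replicate cultures of 1 state differ and on how libraries are scaled to each other. In bulk RNA, fewer cells of a type and less RNA per cell cannot be told apart.

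RefSeq lists 14404 genes for assembly ASM285v2, and 0 of the 10505 IDs matched any of them, so the 82 members carry no name, product or sequence here, and the mycelium label could not be set against marker genes. Transcript lengths were not used either. A high CPM can thus come from a long transcript, and levels of different members are compared only as shares of counts. The libraries held from 16828913 to 17719717 counts in fermentation and from 17595864 to 20267348 in seed. Every member had at least 7442 counts in its lowest library, which puts the counting error of any single value at 1.16% or less. Replicates of 1 state differed by more than counting noise, with a chi-square per degree of freedom of 18.9 to 82.5 between fermentation libraries and 12.1 to 42.1 between seed libraries. Fermentation replicate 1 was in both of the highest pairs of its state.

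Of the 217 IDs with at least 500 CPM in both states, 82 were members, 69 had a ratio above the upper bound and 66 a ratio below the lower one. The members' mean over all libraries ran from 523 to 17053 CPM, with a median of 1052 CPM, and 45 of the 82 reached 1000 CPM. The median of the abundant IDs above and below the bounds was 1125 CPM and 1124 CPM. The ratio of fermentation to seed lay above 1 for 42 members and below 1 for 40, with a median of 1.01, and 40 members lay between 0.9 and 1.11. These ratios were fixed by the choice. At the upper bound, the 2 nearest IDs inside had ratios of 1.245 and 1.236, and the 2 nearest outside 1.254 and 1.261. At the lower bound they were 0.802 and 0.803 inside, against 0.792 and 0.780 outside. At the level bound, the lower state mean of the nearest IDs was 504 and 506 CPM inside and 494 and 489 CPM outside.

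**Figure D1:**
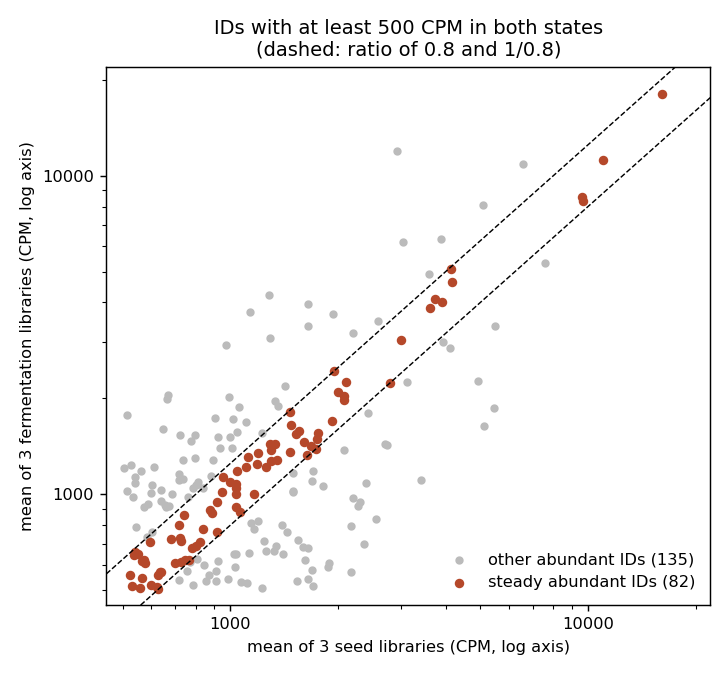
Mean CPM of the 3 fermentation libraries (vertical, log axis) against the mean of the 3 seed libraries (horizontal, log axis) for the 217 IDs with at least 500 CPM in both states. The 82 members lie between the dashed lines at ratios of 0.8 and 1/0.8, from 523 to 17053 CPM over all libraries.

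The members held 14.8 ± 1.40% of the counts in fermentation and 14.8 ± 0.641% in seed (SD, n = 3). The single libraries held 16.3%, 13.6% and 14.5% in fermentation replicates 1 to 3, against 14.0%, 15.0% and 15.2% in seed replicates 1 to 3. Fermentation thus had both the highest and the lowest library. The abundant IDs above the upper bound, shown for scale, held 15.1 ± 1.14% in fermentation and 8.18 ± 0.317% in seed, and those below the lower bound held 6.75 ± 0.245% in fermentation and 12.9 ± 0.308% in seed (SD, n = 3).

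A few members made most of the movement in this share. The 4 members with the highest CPM held 6.05%, 3.69% and 4.09% of the fermentation libraries, against 4.19%, 4.67% and 5.05% of the seed libraries. Fermentation replicate 1 was the highest of the 6 and fermentation replicate 2 the lowest. The other 78 members together held 10.3%, 9.89% and 10.4% in fermentation, against 9.83%, 10.3% and 10.2% in seed. Their summed share had a coefficient of variation (CV, the SD as a percent of the mean) of 2.78% in fermentation and 2.47% in seed, while that of the 4 was 27.4% in fermentation and 9.28% in seed. A sum can stay level while its members move in opposite directions. Taken singly, the 82 members had a median CV of 12.8% in fermentation and 6.95% in seed.

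**Figure D2:**
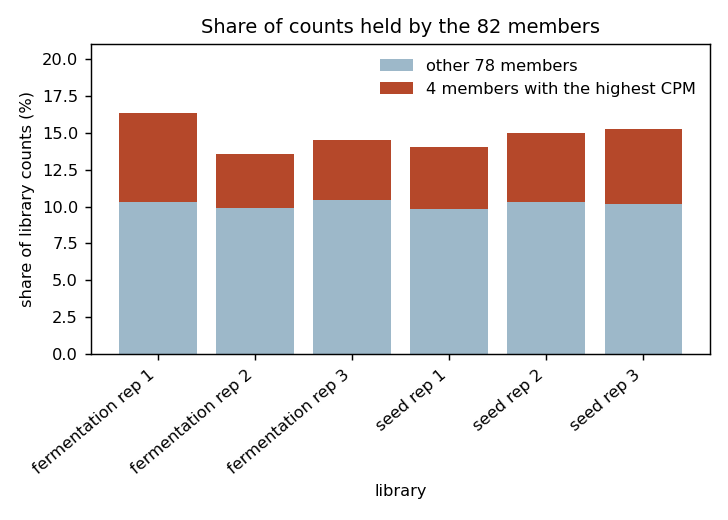
Share of library counts (vertical, percent) held by the 82 members in each library (horizontal), stacked as the other 78 members and the 4 with the highest CPM. The lower part stays between 9.83% and 10.4%, and the upper part is largest in fermentation replicate 1 at 6.05%.

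ANI_1_212154 had the highest CPM of all IDs in both states, with 24516, 14087 and 15496 CPM in fermentation replicates 1 to 3, against 14633, 15782 and 17806 CPM in the seed replicates. Its seed libraries lay inside the range of its fermentation libraries, and fermentation replicate 1 stood 1.66 times above the mean of fermentation replicates 2 and 3. Its fitted difference was 0.29 ± 0.26 on the log2 scale (SE, edgeR). Without fermentation replicate 1 it turned to -0.09, and without any other single library it lay between 0.20 and 0.47. ANI_1_936024 followed the same order with 13971, 9527 and 9991 CPM in fermentation, against 9581, 11234 and 12173 CPM in seed. The states overlapped, with fermentation replicate 1 again highest.

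ANI_1_2104064 had 10003, 7138 and 8576 CPM in fermentation, against 8720, 10085 and 9983 CPM in seed. Fermentation replicate 2 was the lowest library and the other values overlapped. ANI_1_90014 had 11999, 6143 and 6832 CPM in fermentation, against 9007, 9550 and 10570 CPM in seed. Here the seed libraries fell into the gap between fermentation replicate 1, which was above all of them, and fermentation replicates 2 and 3, which were below all of them. Its ratio of means of 0.857 averages over that gap: of the 9 ratios of 1 fermentation library to 1 seed library, only 1 lay within the bounds. Its fitted log2 difference was -0.09 with all libraries and -0.55 without fermentation replicate 1 (edgeR, Benjamini-Hochberg adjusted p = 0.0038 without it). The rule held its ratio within the bounds with that library, so the shift without it follows in part from the choice. Nothing is read from this p.

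ANI_1_3158024, the fifth by level, was close to the upper bound. It had 5185, 4769 and 5377 CPM in fermentation, against 4127, 4362 and 3921 CPM in seed. Its states did not overlap, every fermentation library being above every seed library, and the CV was 6.09% in fermentation and 5.33% in seed. Its ratio was 1.24, and its fitted log2 difference under TMM 0.41 ± 0.13 (SE, edgeR, Benjamini-Hochberg adjusted p = 0.019), which is past the upper bound of 0.32. That bound was set on library totals, by which the edgeR fit gave 0.31, inside it. Of its 9 single-library ratios by totals, 5 lay within the bounds. The call was lost under upper-quartile scaling, with an edgeR adjusted p of 0.093 and a difference of 0.26. It was also lost without fermentation replicate 3 (adjusted p = 0.062, edgeR) and without seed replicate 1, 2 or 3 (0.088, 0.053 and 0.078, edgeR). With the replicate number as a block it was lost too (edgeR adjusted p = 0.058). The call was kept under RLE, library totals and the sum of the members as library size (edgeR adjusted p = 0.020, 0.025 and 0.048). It was also kept with no filter on low counts and without fermentation replicate 1 or 2 (edgeR adjusted p = 0.027, 0.022 and 0.0088). DESeq2 kept it as well (adjusted p = 0.0045). The rule used this contrast, so nothing is read from these p.

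The 3 members that varied least over the 6 libraries ranked 74, 82 and 45 among the 82 by level. ANI_1_896084 had 603, 623 and 621 CPM in fermentation, against 569, 555 and 578 CPM in seed. Its CV over all 6 libraries was 4.81%, and although the states did not overlap, the highest library was only 1.12 times the lowest. ANI_1_1300034, the lowest member by mean level, had 515, 502 and 527 CPM in fermentation, against 489, 536 and 569 CPM in seed, with a CV of 5.37% over 6 libraries. Its fermentation libraries all lay within the range of the seed libraries. ANI_1_846184 had 981, 1084 and 940 CPM in fermentation, against 976, 1042 and 1090 CPM in seed, a CV of 6.10% with overlapping states. In each of these 3 the highest library was at most 1.16 times the lowest, so all 9 ratios of single libraries lay within the bounds. They were picked for a small CV over the same libraries, so nothing more is read from this.

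At the other end, ANI_1_1166024 had 1139, 468 and 535 CPM in fermentation, against 564, 737 and 889 CPM in seed. Its ratio of means of 0.978 was closer to 1 than that of ANI_1_896084 at 1.09, yet its CV was 51.8% in fermentation and 22.3% in seed, and 2 of the 9 single-library ratios lay within the bounds. ANI_1_492074 had 2070, 1017 and 1083 CPM in fermentation, against 1759, 1679 and 1755 CPM in seed. The seed libraries were tight, with a CV of 2.60%, and sat between fermentation replicate 1 and the lower fermentation replicates 2 and 3, whose state had a CV of 42.4%. This was the largest ratio of fermentation SD to seed SD among the members, 15.0 on the log2 scale.

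ANI_1_828164 and ANI_1_1516084 had the next largest ratios of fermentation SD to seed SD, at 9.06 and 7.74. ANI_1_828164 had 1016, 1486 and 1414 CPM in fermentation, against 1112, 1153 and 1106 CPM in seed, so that fermentation replicate 1 was below all seed libraries and fermentation replicates 2 and 3 above them. ANI_1_1516084 had 544, 420 and 569 CPM in fermentation, against 628, 609 and 634 CPM in seed, all fermentation libraries being lower. Their CV was 19.4% and 15.6% in fermentation, against 2.30% and 2.10% in seed.

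Across the 82 members the replicate spread was wider in fermentation. The median CV was 12.8% in fermentation, with quartiles of 7.97% and 17.8%, and 6.95% in seed, with quartiles of 4.69% and 9.98%. The CV was higher in fermentation for 62 of 82 members (75.6%), beside 67.9% of the tested IDs with counts in both states, whose median CV was 15.2% in fermentation and 9.79% in seed. Of the abundant IDs above the upper bound, 65.2% had the higher CV in fermentation, and of those below the lower bound, 74.2%. A CV under 10% was seen for 31 members in fermentation, 62 in seed and 26 in both. A CV above 20% was seen for 17 in fermentation and 4 in seed. Members share libraries and are not replicates of a state, so the states were not tested against each other on them.

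Much of the wider spread in fermentation came with fermentation replicate 1. Without it, 33 of the 82 members had a higher CV in fermentation than in seed, in place of 62. Since a CV over 2 libraries runs lower at the median than one over 3, pairs were set against pairs. The median CV was 12.6% for fermentation replicates 1 and 2 and 13.4% for replicates 1 and 3, but 5.75% for replicates 2 and 3. For the seed pairs it was 5.34% (1 and 2), 7.97% (1 and 3) and 5.27% (2 and 3). The pair of fermentation replicates 2 and 3 was wider than the seed pairs for 46, 33 and 42 of the 82 members in the same order. Its median thus lay slightly above 2 of the 3 seed pairs and below the other. By TMM the same pair had a median of 6.81%, against 5.43%, 8.17% and 4.41% for the seed pairs. With fermentation replicate 1 in the pair, the fermentation pair was the wider one for 56 to 65 members. The same order was seen by totals for the tested IDs with counts in both states. Their medians were 16.7% (1 and 2), 14.4% (1 and 3) and 7.86% (2 and 3) in fermentation, against 7.58%, 9.95% and 6.83% in seed.

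**Figure D3:**
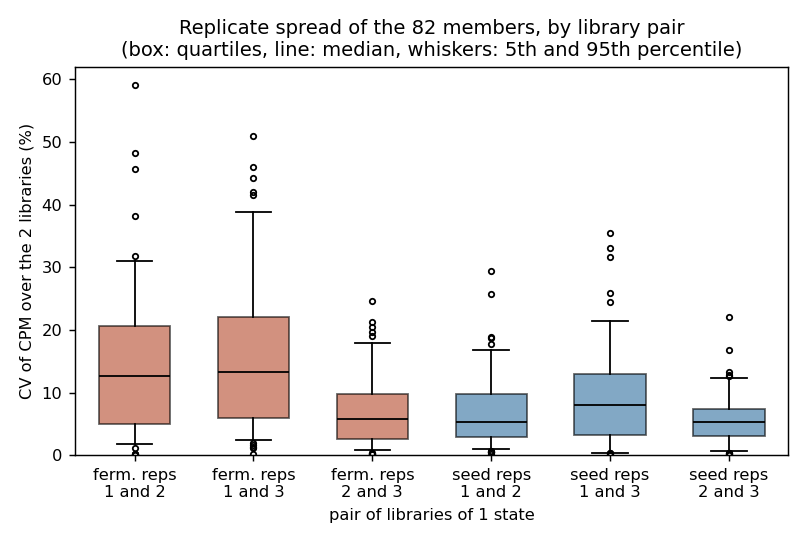
CV of CPM over the 2 libraries of a pair (vertical, percent) for the 82 members, for the 3 pairs of fermentation libraries and then the 3 pairs of seed libraries. Boxes span the quartiles, lines are medians and whiskers reach the 5th and 95th percentile. The 2 pairs with fermentation replicate 1 have medians of 12.6% and 13.4%, and the 4 others lie between 5.27% and 7.97%.

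Members departed in both directions in fermentation replicate 1. It was the highest of the 3 fermentation libraries for 33 members and the lowest for 37. Set against the mean of fermentation replicates 2 and 3, it was more than 25% higher for 16 members, more than 20% lower for 18 and in between for 48, with a median of 0.973. The tested IDs as a whole had a median of 0.860, and it was the lowest library for 62.7% of them. The 16 higher members include the 4 with the highest CPM, and 13 of them exceeded 1000 CPM. Of the 18 lower members, 7 did.

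The 16 members that were high in fermentation replicate 1 held 8.42% of that library, 5.30% of replicate 2 and 5.74% of replicate 3, against 6.05%, 6.55% and 7.04% of the seed libraries. The 18 low ones held 1.29%, 1.73% and 1.92% in fermentation, against 1.63%, 1.72% and 1.60% in seed. Without fermentation replicate 1, the median ratio of fermentation to seed was 0.886 for the 16 and 1.09 for the 18, while with it both were near 1, at 0.997 and 0.979. These 34 members were picked by that library and the ratio with it was fixed by the rule, so the shift follows from the choice and nothing is read from it. The remaining 48 members had a median ratio of 1.01 with fermentation replicate 1 and 1.02 without it. They were set apart by a small departure of that library, so this too follows from the choice.

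**Figure D4:**
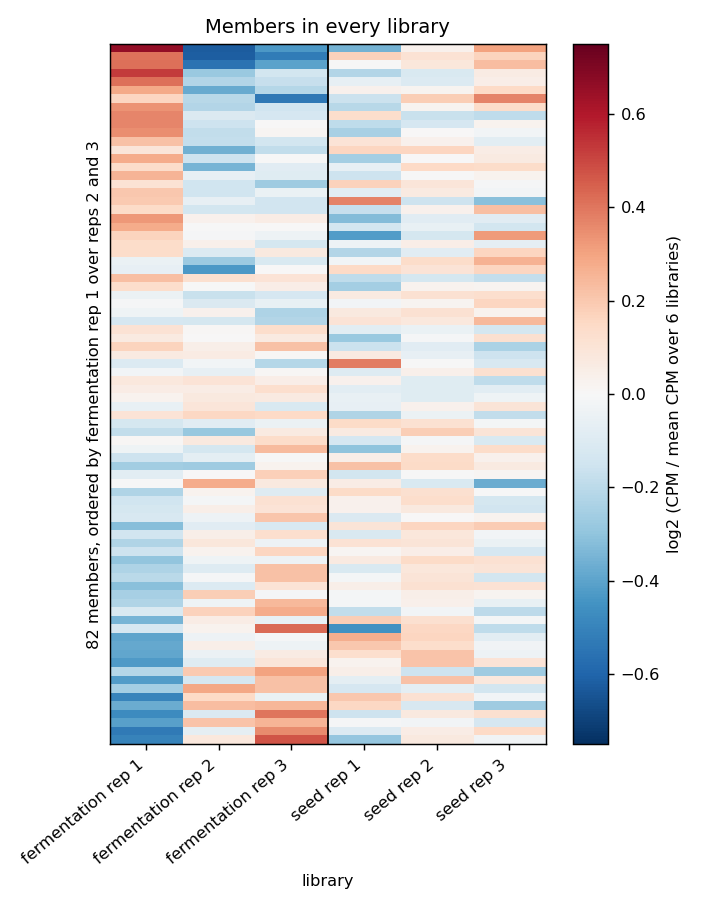
Level of each of the 82 members (rows) in each library (columns, fermentation left of seed) as log2 of its CPM over its own mean of 6 libraries. Rows run from the highest to the lowest ratio of fermentation replicate 1 to fermentation replicates 2 and 3, from 2.27 to 0.578. Seed columns are paler than the column of fermentation replicate 1.

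The seed libraries also differed in a patterned way. Seed replicate 2 was the lowest of its state for 7 of the 82 members, while seed replicate 1 was the lowest for 41 and seed replicate 3 for 34. Over all tested IDs, seed replicate 2 was the lowest for 23.8%, seed replicate 1 for 33.6% and seed replicate 3 for 42.5%. Of the 16 members high in fermentation replicate 1, 10 were highest in seed replicate 3 and 10 lowest in seed replicate 1. Of the 18 low in fermentation replicate 1, 2 were highest in seed replicate 3. Among all 82 members, 30 were highest in seed replicate 3. Across the 82 members, deviations from the state mean correlated at r = 0.418 between fermentation replicate 1 and seed replicate 3. Over the 9 pairs of a fermentation and a seed library, r ran from -0.514 (fermentation replicate 2 and seed replicate 3) to 0.466 (fermentation replicate 3 and seed replicate 2). The members share depth and library composition within a library. Deviations from a state mean also cancel within each state, so positive values among the 9 force negative ones. These values are therefore descriptive.

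The rule was then applied without 1 library at a time, and that library was examined afterwards. Without fermentation replicate 1, 80 IDs met the rule, of which 69 were members, so 13 members were lost and 11 IDs gained. When fermentation replicate 1 itself was set against the seed mean, 44 of these 80 (55.0%) lay within the bounds, 18 above and 18 below. For the other libraries left out, the share of chosen IDs within the bounds in the unused library was 79.7% and 77.9% for fermentation replicates 2 and 3, and 78.8%, 91.1% and 80.0% for seed replicates 1 to 3. Among the abundant IDs not chosen, between 7.14% and 13.6% lay within the bounds in the unused library. The mean of the other state and the bounds entered both the choice and the later ratio, so the 2 are not independent. IDs not chosen were outside the bounds by the rule. The difference between chosen and other IDs is thus largely built in, and nothing is read from it. A total of 54 members met the rule whichever library was left out.

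By single libraries, 23 members lay within the bounds in all 9 ratios of 1 fermentation to 1 seed library, and 12 members did so in fewer than 5. The median was 6 of 9. The highest library was at most 25% above the lowest for 18 members and at least 2 times the lowest for 2, ANI_1_1166024 at 2.44 and ANI_1_492074 at 2.04. The states did not overlap for 20 of the 82 members, 10 of them higher and 10 lower in fermentation. Over all tested IDs the libraries did not overlap for 70.7%, with 31.0% higher and 39.7% lower. The rule selects for overlap, so nothing is read from this difference.

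How steady the members appeared depended on the scaling. Library totals, used in the rule, treat every library as the same amount of mRNA. TMM and RLE, which scale by the typical gene, gave fermentation replicate 1 a factor of 0.879 and 0.873, against 1.04 and 1.04 for fermentation replicate 2, 0.989 and 0.988 for replicate 3, and 1.02 to 1.06 for the seed libraries. Upper-quartile scaling gave 0.935, 1.07 and 1.05 in fermentation, against 1.01, 0.978 and 0.959 in seed. As a result the members' median ratio of fermentation to seed was 1.01 by totals, 1.08 by TMM, 1.09 by RLE and 0.977 by upper quartile.

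Some members left the bounds under each of the other scalings. Under TMM 81 IDs met the rule, 73 of them members, which is 89.0% of the members and 90.1% of the TMM set. All 9 members lost had a ratio above the upper bound. Under RLE the numbers were the same. Under upper-quartile scaling 81 IDs met the rule, 75 of them members, and 6 members fell below a ratio of 0.8 while 2 fell below 500 CPM, 1 ID counting under both. In all, 66 members met the rule under all 4 scalings. The direction in which fermentation replicate 1 departed also turned with the scaling: it was more than 25% above fermentation replicates 2 and 3 for 27 members and more than 20% below them for 6 by TMM, but for 16 and 18 by totals. Over all tested IDs those numbers were 1722 and 1865 by TMM, and 918 and 3399 by totals.

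**Figure D5:**
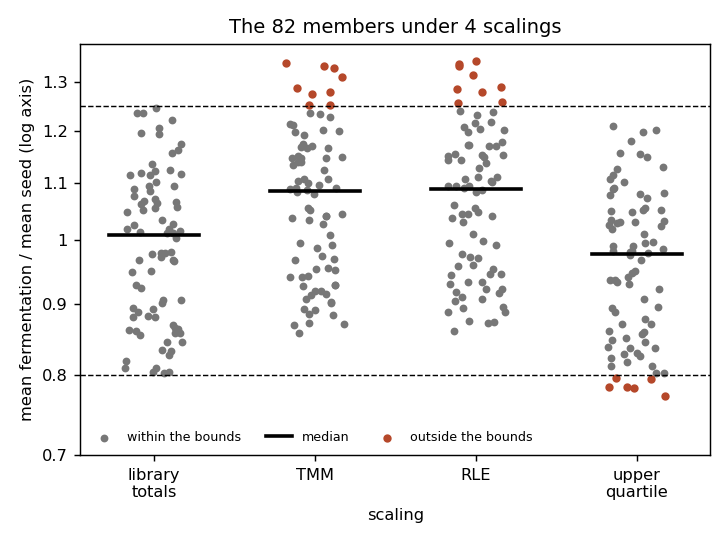
Ratio of mean fermentation to mean seed level (vertical, log axis) of the 82 members under library totals, TMM, RLE and upper-quartile scaling (horizontal). Points are members, bars medians and dashed lines the bounds of 0.8 and 1/0.8. The medians are 1.01, 1.08, 1.09 and 0.977, and members leave through the upper bound under TMM and RLE and through the lower bound under upper quartile.

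All 82 members passed the low-count filter of the edgeR quasi-likelihood fit with TMM. Their log2 differences ran from -0.22 to 0.42 with a median of 0.12, beside a median of 0.01 for all 8963 IDs tested. The members' median was 0.0029 without fermentation replicate 1, 0.15 without replicate 2 and 0.057 without replicate 3, and 0.029, 0.13 and 0.11 without seed replicates 1 to 3. With all libraries, their standard errors ran from 0.10 to 0.37 with a median of 0.13. At a Benjamini-Hochberg adjusted p under 0.05, 8 members were called higher and 0 lower, where 33.9% of all tested IDs were called higher and 33.0% lower. At an unadjusted p under 0.05, the same edgeR fit gave 12 members higher and 1 lower, where 35.5% and 34.7% of the tested IDs were higher and lower. Under upper-quartile scaling 0 were called higher and 6 lower, where the tested IDs gave 28.4% and 39.1%. At an unadjusted p under 0.05 those edgeR numbers were 0 and 10, where the tested IDs gave 29.8% and 40.7%. That scaling put the median log2 difference of all tested IDs at -0.14 and that of the members at -0.03. With library totals 3 were called higher and 3 lower, where the tested IDs gave 29.2% and 35.0%. DESeq2 called 11 higher and 1 lower, where its tested IDs gave 31.0% and 29.7%. Without fermentation replicate 1, edgeR called 17 members, 9 higher and 8 lower, where 67.1% of the tested IDs were called. Without fermentation replicates 2 or 3 it called 8 and 2, where 63.0% and 60.5% of the tested IDs were called. Without seed replicates 1, 2 or 3 it called 1, 3 and 1, where 63.1%, 56.4% and 58.4% were called. With the sum of the members as library size edgeR called 2 members, with no filter on low counts 5 and with the replicate number as a block 4, where 55.6%, 58.4% and 65.7% of the tested IDs were called. The rule used this contrast, so these counts show how the scaling shifts the members and support nothing else.

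A missing call did not show that a member was unchanged. The 95% interval of the log2 difference lay wholly between the bounds for 8 of the 82 members, and for the other 74 it reached past at least 1 bound. The fit used TMM, which put the members' median log2 difference at 0.12, while the bounds were set on library totals, where it was 0.01. The count of 8 can thus depend on the scaling as well as on the width of the intervals. The median interval reached 0.29 to each side of the estimate, compared with 0.32 from a ratio of 1 to either bound. For ANI_1_846184 the interval ran from -0.20 to 0.31, and for ANI_1_1166024 from -0.74 to 0.96. The estimate for ANI_1_1166024 was 0.11 with all libraries and -0.51 without fermentation replicate 1 (edgeR, Benjamini-Hochberg adjusted p = 0.040 without it). This ID is named for its large CV, and fermentation replicate 1 was its highest library. The rule held its ratio within the bounds with that library, so nothing is read from the shift or its p.

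Ratios between members in the same library do not depend on the scaling. Each member was divided by the geometric mean of the 82 in its library. The SD of that log2 ratio over 6 libraries had a median of 0.17, against 0.18 for log2 CPM, so a common scaling removed little of the spread. ANI_1_1300034 kept the most constant ratio to the geometric mean, with an SD of 0.058 over 6 libraries and 0.0040 over the 3 fermentation libraries. ANI_1_1166024 kept the least constant one, with 0.48 over 6. Of the 3321 pairs of members, 244 (7.35%) kept a ratio whose highest value was at most 25% above its lowest over the 6 libraries, and for 509 (15.3%) the ratio varied at least 2-fold.

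The tightest of these pairs, picked from all 3321 after the values were seen, was ANI_1_1038024 over ANI_1_802164. Their ratio was 1.11, 1.13 and 1.15 in fermentation, against 1.15, 1.15 and 1.13 in seed, an SD of 0.022 on the log2 scale. Both members were themselves among the 18 low in fermentation replicate 1, so 2 IDs that varied together kept a steadier ratio than either kept a level.

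When the demands were combined, 54 members met the rule without any 1 library, 53 of these also did so under TMM, RLE and upper-quartile scaling, and 19 of those had a CV under 10% in both states. The CV over 6 libraries of these 19 ran from 4.81% to 10.5%. They include ANI_1_896084, ANI_1_1300034 and ANI_1_846184, and none of the 4 members with the highest CPM. The IDs named here were picked for a small CV, so their inclusion follows in part from that pick. The count of 19 rests on thresholds chosen after the values were seen.

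The ID numbers gave little structure. Read as a number with a 3-digit ending, the 82 members fell into 16 of the 18 endings in the table, with 1 to 11 members in each. Successive IDs within an ending were both members in 3 cases, named here after their values were seen. ANI_1_962064 and ANI_1_964064 were both high in fermentation replicate 1, with 1443, 1095 and 1124 CPM and 2731, 1758 and 1816 CPM in fermentation, against 1328, 1266 and 1174 CPM and 1961, 1909 and 2123 CPM in seed. ANI_1_628104 and ANI_1_630104 did not vary alike. ANI_1_628104 had 1624, 1623 and 1705 CPM in fermentation, against 1480, 1470 and 1478 CPM in seed, where its CV of 0.372% was the lowest of any member and below its counting error of 0.620%. ANI_1_630104 had 1738, 1198 and 1378 CPM in fermentation, against 1152, 1369 and 1345 CPM in seed. In the last pair, ANI_1_928104 and ANI_1_930104 were both highest in fermentation replicate 3 within that state, at 707 and 1626 CPM, with seed libraries from 726 to 808 CPM and from 1630 to 1765 CPM. The table does not state what the numbers mean.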

How the data were processed

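The deposited table holds whole-number read counts per gene ID with no normalization, which the authors left as raw counts. HTSeq, HISAT2, Bowtie2, DESeq, Trimmomatic, StringTie, SAMtools and Cufflinks stand in the submitters' processing notes without roles. Genome build, annotation and strand setting: not given in the sources used here. The library kit was a stranded mRNA kit, per the labels' protocols. Since the counting settings are not given, near-identical or overlapping genes may share reads.

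CPM were computed from library totals, and spread as the SD or CV over 3 libraries. Calls came from edgeR 4.0.16 (quasi-likelihood, TMM, filterByExpr, group as the only term, Benjamini-Hochberg over 8963 IDs) in R 4.3.3. The filter left out low counts but no member. The standard error is the absolute log2 difference over the square root of F. The fit was tested on simulated data. Alternatives were other scalings, bounds, filters, DESeq2 1.42.0, a replicate block and leaving out each library.

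The members and lists were chosen with earlier results of these data known. IDs are named if they were the 5 highest by mean CPM, the 3 smallest and 3 largest by CV over 6 libraries, or the 3 with the largest ratio of fermentation to seed SD. The tightest pair of members and the successive IDs that were both members are named as well, after their values were seen. Of called IDs at most 2 are named. Gene groups by product and marker lists were not used, since no ID matched a name. Same-numbered libraries deviated together at r = 0.051, 0.045 and 0.067 across IDs and were not treated as pairs.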

Additional observations from a re-analysis of the deposited data

How the results depend on the processing

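The number of IDs meeting the rule was 159 at 250 CPM, 44 at 1000 CPM, 40 with a ratio from 0.9 to 1.11, 123 with a ratio from 1/1.5 to 1.5 and 75 by medians. It was 80 to 86 under other scalings and 77 to 85 with 1 library left out. Without the 10 most abundant IDs the members' share was 11.3% in fermentation and 10.9% in seed, since several of the 10 are members. With 1 library left out, the share ran from 14.0% to 15.4% in fermentation and from 14.5% to 15.1% in seed. The median CV ran from 5.75% to 13.4% in fermentation and from 5.27% to 7.97% in seed, over 2 libraries each. Without fermentation replicate 1, an alternative added after the data were seen, 33 of 82 members had the higher CV in fermentation, in place of 62. That sets a CV over 2 fermentation libraries against a CV over 3 seed libraries. Pair against pair, fermentation replicates 2 and 3 were wider than the seed pairs for 46, 33 and 42 members. With all libraries, 60 to 66 members had the higher CV in fermentation under other scalings. The members' median log2 difference was -0.033 under upper-quartile scaling, in place of 0.12 (0.0029 to 0.15 with 1 library left out), which follows from that scaling's factors. Members called were 2 with the sum of the members as library size, 5 with no filter on low counts and 4 with the replicate block, in place of 8, where 4985, 6042 and 5890 IDs were called in all. Equal numbers are tied to no shared day or batch by the labels, and 3 of 6 libraries correlated best with their own number. The TMM fit without the block called 5995. With the block the call of ANI_1_3158024 was lost (edgeR adjusted p = 0.058), in a range of 0.0045 to 0.093 over its alternatives. With 1 library left out, the members called ran from 1 (without seed replicate 1 or 3) to 17 (without fermentation replicate 1), being 3 without seed replicate 2 and 2 without fermentation replicate 3. Of all tested IDs, 63.1%, 58.4%, 67.1%, 56.4% and 60.5% were called in these settings, in the same order. What causes these shifts was not tested. Of the log2 differences of the 12 IDs named by level, CV or SD ratio, 133 of the values under alternatives moved by less than the replicate SD and 23 by more. The sign changed under at least 1 alternative for 8 of the 12. Of the 12, 2 were called with all libraries, where 33.9% of the tested IDs were called higher and 33.0% lower. Without fermentation replicate 1, 5 of the 12 were called, where 67.1% of the tested IDs were. Some of the 12 were named for a spread that this library widened, so nothing is read from the rise. The replicate CV was a median of 15.5 times the counting error in fermentation and 8.67 times in seed, but under 2 times it for 3 members in fermentation and 2 in seed, and below it for ANI_1_628104 in seed, so depth limits how finely the spread of these few can be read.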
